A study of Mus musculus with 28 samples.

Results

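Collagens, laminins, nidogens, integrins and 4 further matrix glycoproteins were followed in mouse retina after optic nerve crush, with and without RGFP966, a small molecule that blocks HDAC3, an enzyme that removes acetyl groups from histones. Members were taken by gene symbol: every collagen, laminin chain and integrin chain, plus Sparc, Fn1, Tnc, Hspg2, Nid1 and Nid2, without the leukocyte integrins Itgam, Itgax and Itgb2 and the Itgb1bp genes. Of 88 symbols that met this rule, 82 had a mean of at least 10 normalized counts over the libraries and are the members described here, among 15773 genes tested and 35973 genes listed. They comprised 41 collagen genes, 13 laminin and nidogen genes, 22 integrin genes and 4 other glycoproteins. The remaining 2, Col4a3bp and Itgb3bp, share only part of a symbol with the families and encode a ceramide transporter and a centromere protein. The 6 symbols under the threshold were Itgb7 at a mean of 9.90, Col28a1 at 7.01, Col14a1 at 6.57, Itgad at 3.12, Col10a1 at 1.93 and Itgb2l at 0.116. Itga11 at 10.5 lay just inside it.

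Every mouse had its right optic nerve crushed (ONC) and its left one intact (CTRL), so side and crush are a single factor, and retinas were taken 7 days later. RGFP966 at 10 mg/kg, or its vehicle, was given intraperitoneally each day for 7 days. The 4 groups were the uncrushed and the crushed eyes of 6 vehicle mice (2 females, 4 males) and of 7 RGFP966 mice (3 females, 4 males), 26 libraries in all. The sources used here give neither strain nor age. For the uncrushed eye of RGFP966 female A a free-text note mentions crush; its title and condition were followed. Libraries held an estimated 16000000 to 24800000 reads (median 19500000). Rod markers were abundant in every library, with sums of 6 markers between 1043000 and 2324000. With crush, 3 of the 6 were called lower in vehicle and 2 in RGFP966 mice (median log2 change -0.33 and -0.28). Their sum was higher in the crushed eye of 0 of 6 vehicle and 1 of 7 RGFP966 mice. All 7 retinal ganglion cell markers fell with crush in both treatment arms. The sum of 12 lens markers reached 26900 in the uncrushed eye of RGFP966 male A, against a median of 127 for that group. In the uncrushed eye of vehicle female A it was 3336, against a group median of 67.7. The sum of 10 pigment epithelium and melanocyte markers ranged from 376 to 5686 over all libraries.

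The extracellular matrix is a mesh of secreted proteins outside the cell. Collagens form fibrils and networks, and laminins, collagen IV, nidogens and perlecan build the basement membranes of the inner limiting membrane and of retinal blood vessels. Integrins are receptors made of an alpha and a beta chain; they bind matrix proteins and link them to the cytoskeleton, and several of those with the alpha-v chain also release active TGF-beta from its latent form. In the injured retina and optic nerve, matrix and integrin genes are known to be used by glia, by vessels and by microglia.

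Crush was followed by a rise of a small group of members, mainly integrin chains and Sparc, and by a fall of 2 collagen genes. In vehicle mice 5 of 82 members rose and 2 fell (limma, Benjamini-Hochberg adjusted p under 0.05 over all 15773 genes), which is 6.1% and 2.44% of the members. Among all genes, 3.69% rose and 1.65% fell. In RGFP966 mice 8 members rose and 2 fell, 9.76% and 2.44%, against 3.34% and 1.33% of all genes. The median log2 change of the members was 0.10 in vehicle and 0.02 in RGFP966 mice, and that of all genes was -0.01 in both. All 7 members called in vehicle mice were also called in RGFP966 mice, in the same direction, and 72 members were called in neither. Of all calls over all genes, 69.1% in vehicle mice and 71.5% in RGFP966 mice were rises, and when libraries were instead rescaled to the same total these shares became 91% and 85.4%.

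**Figure D1:**
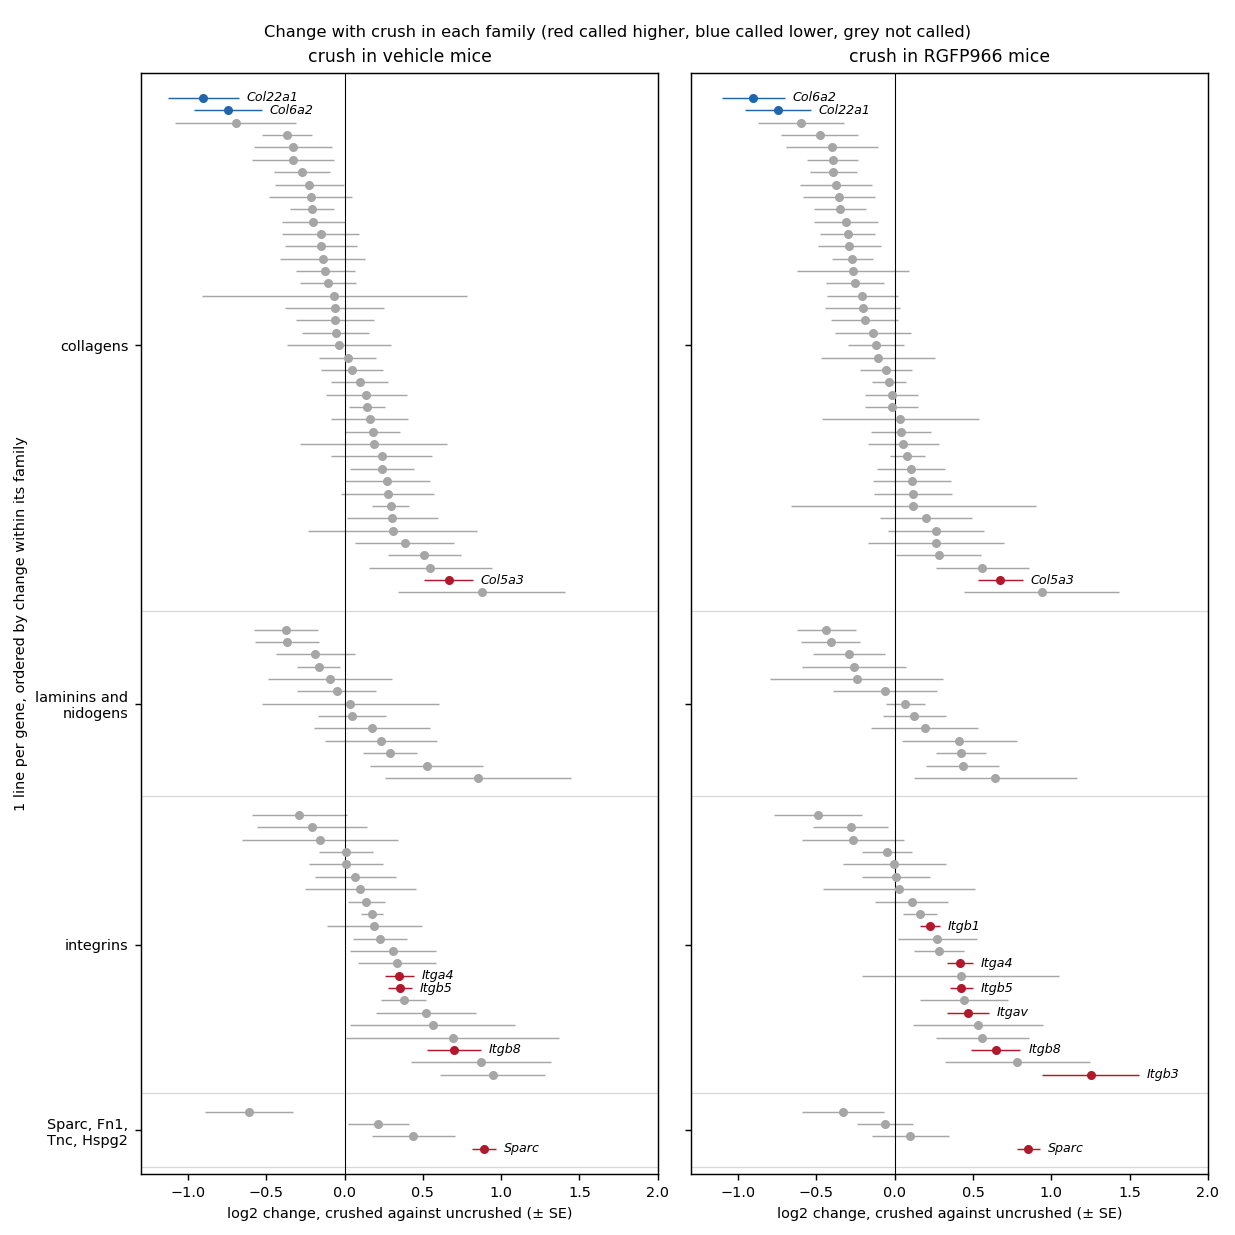
Log2 change with crush (crushed against uncrushed eyes, x axis, with its SE) of the 80 collagen, laminin, nidogen, integrin and glycoprotein members, 1 line per gene within each family, in vehicle mice (left) and RGFP966 mice (right). Red points rose, blue points fell and grey points were not called; calls lie in the integrins, in 3 collagens and in Sparc, and none lie among the laminins and nidogens.

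Both eyes of a mouse gave the direction within an animal. In 13 of 13 mice the crushed eye was higher for 6 members, Sparc, Itga4, Itgb1, Itgb3, Itgb5 and Itgb8, which is 7.32% of the members against 2.49% of all genes. Col5a3 and Itgav were higher in 12 of 13 mice, 2.44% of the members and 2.22% of all genes. At the other end, Col22a1, Col4a4 and Lamb1 were higher in only 1 of 13, 3.66% against 2.21%. Crushed and uncrushed eyes did not overlap at all for Sparc in either arm, for Itgb8 in vehicle mice and for Itgb5 in RGFP966 mice, so 2 members (2.44%) in each arm, all with the crushed eyes higher. Over all genes 2.42% in vehicle and 1.56% in RGFP966 mice did so in that direction, and no member had all crushed eyes lower.

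**Figure D2:**
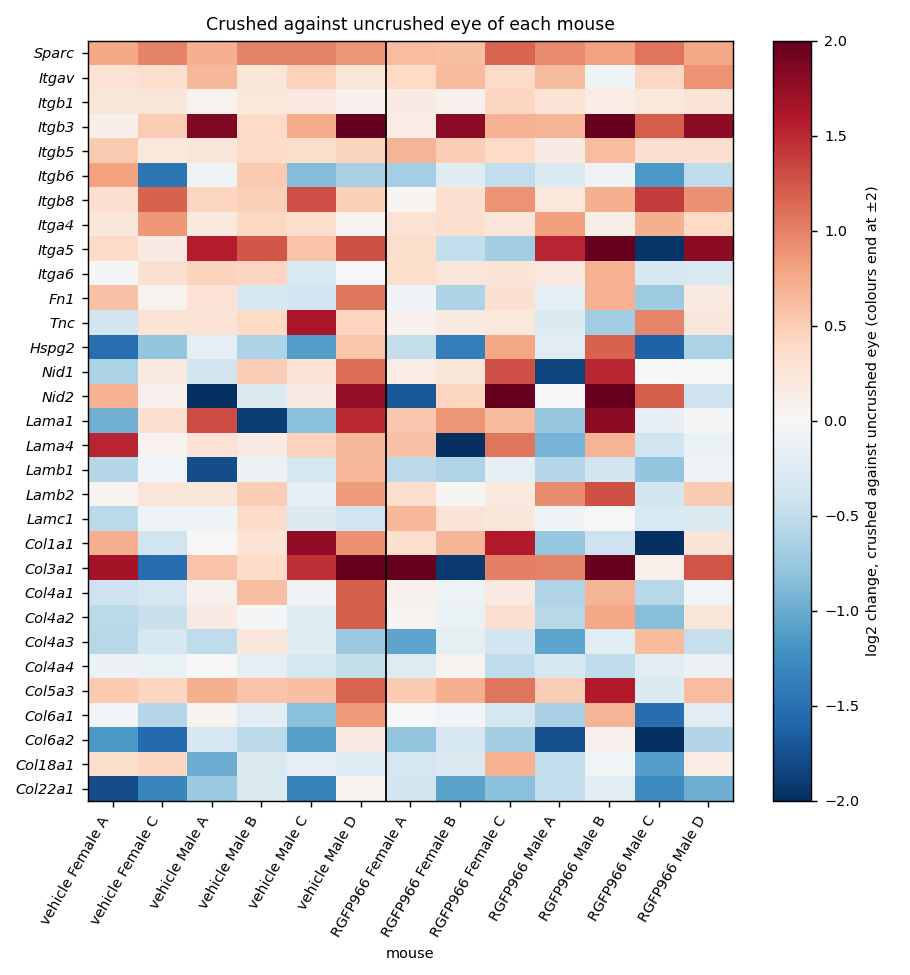
Log2 change between the crushed and the uncrushed eye (colour, red higher after crush, ending at ±2) for 31 members in each of 13 mice, 6 vehicle mice left of the black line and 7 RGFP966 mice right of it. The Sparc, Itgb1, Itgb3, Itgb5, Itgb8 and Itga4 lines lie above 0 in all 13 mice. Small rises are pale, as for Itgb8 in RGFP966 female A (422.5 to 435.3). Lamb1 and Col4a4 lie above 0 in only 1 of 13 mice, Col4a3 in 2 and Lamb2 in 11. The other laminin and collagen IV lines mix both colours.

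Sparc (chr11:55394500-55423183, minus strand, GRCm38 as for all positions) encodes osteonectin, a calcium-binding glycoprotein that binds collagen and is secreted by glia and vessel cells. In uncrushed vehicle eyes it ranged from 2647 to 3203 normalized counts with a median of 2860, and in crushed vehicle eyes from 4885 to 5945 with a median of 5382. In RGFP966 mice it ranged from 2303 to 3061 (median 2684) before and from 3814 to 5524 (median 5147) after crush. Every crushed eye was above every uncrushed eye of its arm. Mean levels went from 2905 ± 254 to 5376 ± 348 (SD, n = 6) in vehicle mice and from 2651 ± 234 to 4814 ± 634 (SD, n = 7) in RGFP966 mice. The log2 change was 0.89 ± 0.08 (SE; adjusted p = 7.8e-09) with vehicle and 0.85 ± 0.07 (adjusted p = 4.2e-09) with RGFP966. These calls held under all 21 alternatives.

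The RefSeq promoter windows (GRCm38.p6, 250 bases before to 50 after the start) of Sparc and of 3 integrin chains follow, to show the letters around an annotated start. Sparc was the member with the smallest p. Sparc, Itgb5 and Itgb8 were called higher in both arms, and Itgav in RGFP966 mice alone. A window was found for 59 of the 82 members. The RefSeq starts of Itgb5 and Itgav are those of the GENCODE genes, whereas that of Sparc lies 3103 bases and that of Itgb8 526 bases inside the GENCODE 5′ end, so these windows are not at the outermost annotated start. Capitals mark matches, on either strand, to any of 5 motifs: the GC box GGGCGG, the CCAAT box CCAAT, the TATA box TATAAA, the AP-1 site TGANTCA and the STAT site TTCNNNGAA.
Sparc (chr11:55420031-55420330, minus strand): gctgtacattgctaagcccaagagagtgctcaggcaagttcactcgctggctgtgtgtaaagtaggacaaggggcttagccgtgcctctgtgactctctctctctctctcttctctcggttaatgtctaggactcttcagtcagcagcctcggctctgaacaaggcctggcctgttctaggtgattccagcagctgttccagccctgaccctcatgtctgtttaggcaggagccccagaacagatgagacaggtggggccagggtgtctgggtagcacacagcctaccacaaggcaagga
Itgb5 (chr16:33829415-33829714, plus strand): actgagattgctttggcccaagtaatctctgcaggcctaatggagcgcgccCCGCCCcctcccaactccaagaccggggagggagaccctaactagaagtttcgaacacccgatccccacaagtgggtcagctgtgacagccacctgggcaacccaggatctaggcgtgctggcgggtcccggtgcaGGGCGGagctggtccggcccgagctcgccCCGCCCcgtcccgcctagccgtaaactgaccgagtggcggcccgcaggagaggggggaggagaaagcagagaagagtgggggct
Itgb8 (chr12:119238227-119238526, minus strand): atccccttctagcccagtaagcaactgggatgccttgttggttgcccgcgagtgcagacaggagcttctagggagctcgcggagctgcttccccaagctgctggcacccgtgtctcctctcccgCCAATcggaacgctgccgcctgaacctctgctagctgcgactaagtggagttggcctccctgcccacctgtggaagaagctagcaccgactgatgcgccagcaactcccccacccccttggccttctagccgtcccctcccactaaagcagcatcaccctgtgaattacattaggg
Itgav (chr2:83724147-83724446, plus strand): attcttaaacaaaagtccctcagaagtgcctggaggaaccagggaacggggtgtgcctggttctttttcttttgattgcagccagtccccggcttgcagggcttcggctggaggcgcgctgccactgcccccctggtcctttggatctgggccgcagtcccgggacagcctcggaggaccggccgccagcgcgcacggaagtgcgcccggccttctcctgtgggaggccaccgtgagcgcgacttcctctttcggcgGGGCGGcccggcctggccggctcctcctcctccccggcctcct
The Sparc window holds none of the 5, that of Itgb5 holds 3 GC boxes, that of Itgb8 holds 1 CCAAT box and that of Itgav holds 1 GC box. Of 32851 RefSeq windows, 35.7% hold a GC box, 37.4% a CCAAT box, 13.6% a TATA box, 7.81% an AP-1 site and 8.3% a STAT site; of the members' 66 windows, 59.1%, 27.3%, 9.09%, 4.55% and 6.06% do. A match describes the letters of the window and no match concerns only this window, not other starts of the gene.

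Integrin chains that rose in both arms were Itgb5, Itgb8 and Itga4. Of 22 integrin members, 3 were called in vehicle mice (13.6%) and 6 in RGFP966 mice (27.3%), all higher. Of all genes, 3.69% and 3.34% were called higher. Median log2 changes of the family were 0.27 and 0.28, and stayed above 0 under both other scalings. The 22 are 15 alpha chains, 6 beta chains and Itgbl1, a secreted protein with integrin-like repeats that is not a receptor chain and was not called (0.19 and 0.44, adjusted p = 0.84 and 0.51). Of the 22, 19 in vehicle and 17 in RGFP966 mice had a positive change, against 7459 and 7526 of all 15773 genes.

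Itgb5 (chr16:33829665-33949338, plus strand), the beta chain that pairs with the alpha-v chain to bind vitronectin, ranged from 747.4 to 998.2 (median 808.4) in uncrushed and from 882.1 to 1150.3 (median 1108) in crushed vehicle eyes. In RGFP966 mice the ranges were 695.5 to 901.6 (median 793.6) and 974.9 to 1188 (median 1092). Groups overlapped with vehicle and did not with RGFP966. The log2 change was 0.36 ± 0.08 (SE; adjusted p = 0.0034) with vehicle and 0.43 ± 0.07 (adjusted p = 0.00016) with RGFP966, and both calls held under all 21 alternatives.

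Itgb8 (chr12:119158022-119238802, minus strand), an alpha-v partner that, like Itgb6, is known to activate latent TGF-beta, ranged from 299.1 to 489.3 (median 424.6) in uncrushed and from 582.7 to 744.6 (median 630.9) in crushed vehicle eyes. With RGFP966 it ranged from 288 to 715 (median 361.6) and from 435.3 to 825.3 (median 626.9). Vehicle groups did not overlap; RGFP966 groups did, through the uncrushed eye of male A. The log2 changes were 0.70 ± 0.17 (SE; adjusted p = 0.012) and 0.64 ± 0.16 (adjusted p = 0.013). The vehicle call was lost without vehicle female C (adjusted p = 0.085) or male C (0.078), and the RGFP966 call without RGFP966 female C (0.063), male C (0.081) or male D (0.063). Without RGFP966 male A, whose uncrushed eye held the highest lens sum, the RGFP966 change was 0.72 (adjusted p = 0.0020).

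Itga4 (chr2:79255426-79333123, plus strand), the alpha-4 chain of receptors for fibronectin and for the vascular adhesion molecule VCAM1, ranged from 1113 to 1626 (median 1495) in uncrushed and from 1540 to 2021 (median 1880) in crushed vehicle eyes. With RGFP966 the ranges were 1063 to 1555 (median 1230) and 1476 to 2013 (median 1721). Groups overlapped slightly in both arms. The log2 changes were 0.35 ± 0.09 (SE; adjusted p = 0.020) and 0.42 ± 0.09 (adjusted p = 0.0021). The vehicle call was lost without vehicle female C (adjusted p = 0.18), male B (0.072) or male C (0.058), and the RGFP966 call held under all 21 alternatives. Itga4 overlaps Cerkl on the opposite strand, and the strandedness of the counting is not given, so their reads cannot be told apart where they overlap; Cerkl changed by 0.35 and 0.34, with adjusted p of 0.14 and 0.11.

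Itgav, Itgb1 and Itgb3 were called in RGFP966 mice alone. Itgav (chr2:83724397-83806916, plus strand), the alpha chain shared by Itgb1, Itgb3, Itgb5, Itgb6 and Itgb8, ranged from 490.4 to 736.1 (median 636.7) in uncrushed and 581.4 to 1157 (median 768.9) in crushed vehicle eyes. With RGFP966 the ranges were 450.7 to 692.9 (median 624.5) and 591.3 to 1032 (median 900.3). Groups overlapped in both arms. The log2 changes were 0.38 ± 0.15 (SE; adjusted p = 0.16) and 0.47 ± 0.13 (adjusted p = 0.041). Itgb1 (chr8:128685654-128733200, plus strand), the most widely shared beta chain, had log2 changes of 0.17 ± 0.07 (adjusted p = 0.19) and 0.22 ± 0.06 (adjusted p = 0.042). Its uncrushed vehicle eyes held 717.5 to 841.2 (median 757.6) and its crushed ones 772.2 to 969.8 (median 869.8), and in RGFP966 mice these were 642.4 to 815.9 (median 721.4) and 764.1 to 954.6 (median 863). Those groups overlapped as well.

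The Itgav call was kept under 11 of 21 alternatives and the Itgb1 call under 10. Leaving out RGFP966 female B, female C, male A, male C or male D, or vehicle female A, female C or male B, raised the adjusted p of Itgav to between 0.052 and 0.19. Leaving out RGFP966 female A, female C, male A, male C or male D, or vehicle female A, female C, male A or male C, raised that of Itgb1 to between 0.057 and 0.19. The Itgav call was also lost with no filter on the mean (0.065) and without the sex term (0.056). The Itgb1 call was also lost with only the groups compared (0.092) and without the sex term (0.08). After rescaling to the same total, both genes were called in vehicle mice too, at 0.49 (adjusted p = 0.044) and 0.29 (adjusted p = 0.021).

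Itgb3 (chr11:104608000-104670476, plus strand), the platelet and osteoclast beta chain, was a low-level gene, with 4.54 to 25.4 (median 13.99) in uncrushed and 16.7 to 33.3 (median 25.0) in crushed vehicle eyes. With RGFP966 it held 6.47 to 21.3 (median 9.08) and 18.3 to 39.3 (median 27.7), and 1 read was worth about 0.747 to 1.23 of these units. Groups overlapped in both arms. Its log2 changes, which the added 1 makes smaller at such levels, were 0.95 ± 0.34 (SE; adjusted p = 0.11) and 1.25 ± 0.31 (adjusted p = 0.013). The call was lost without RGFP966 female B (adjusted p = 0.054), male B (0.077) or male D (0.065).

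None of these 3 passed the test of the difference between treatments. The drug-by-crush interaction was 0.09 for Itgav (95% interval -0.32 to 0.49), 0.05 for Itgb1 (-0.14 to 0.25) and 0.31 for Itgb3 (-0.63 to 1.24), each with adjusted p = 1.0. Of the 5 beta chains that pair with Itgav, 2 were called higher in vehicle and 4 in RGFP966 mice. Of all genes, 3.69% and 3.34% were called higher. Itgb6, the exception in both arms, is a chain of epithelia that ranged from 20.8 to 64.0 in uncrushed vehicle eyes, and its log2 changes were -0.29 and -0.49 (adjusted p = 0.73 and 0.44). It was named here after its values were seen, as the fifth chain of that set.

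The remaining integrin chains were not called. Itga5, the fibronectin receptor chain, had log2 changes of 0.87 ± 0.45 (SE) and 0.53 ± 0.41, with uncrushed RGFP966 eyes spread from 20.6 to 249.0. Its RGFP966 change was 0.95 without RGFP966 male C and 0.09 without male B. Itga6, a laminin receptor chain, held 277.6 to 398.3 in uncrushed and 295.3 to 420.3 in crushed vehicle eyes, a log2 change of 0.14, with 0.16 in RGFP966 mice. Itga10, a collagen receptor chain, had 0.07 and -0.28, and the platelet chain Itga2b had 0.33 and 0.11. Itga8, a receptor chain of smooth muscle and kidney, had -0.16 ± 0.50 and 0.78 ± 0.46. Adjusted p for these 5 chains lay between 0.35 and 0.95.

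Markers of microglia and of astrocytes rose in the same eyes in which the integrin chains and Sparc rose. Of 9 microglial markers, 8 rose in each arm, and their summed level went from 1338 to 2311 in uncrushed to 3399 to 6005 in crushed vehicle eyes, and from 1636 to 2058 to 3194 to 5210 in RGFP966 mice. Of 6 astrocyte markers, 4 rose with vehicle and 3 with RGFP966, and the sums went from 660.6 to 1190 to 1917 to 3470, and from 738.0 to 1055 to 1607 to 2317. The 3 leukocyte integrins that the members leave out rose in both arms, Itgam by 1.70 and 1.46, Itgax by 3.85 and 4.46 and Itgb2 by 1.82 and 1.96 on the log2 scale. Neither sum overlapped between uncrushed and crushed eyes in either arm. None of 10 pericyte and smooth muscle markers was called, but their sum went from 1777 to 2179 in uncrushed to 2192 to 2858 in crushed vehicle eyes, without overlap and higher in 6 of 6 mice, and 9 of the 10 had a positive change (median 0.25). With RGFP966 that sum went from 1577 to 2622 to 1693 to 3205 and was higher in 5 of 7 mice. None of 12 endothelial markers was called either, and their sum, at 6365 to 7885 before and 7655 to 8742 after crush with vehicle, and at 6079 to 8638 and 5221 to 9734 with RGFP966, was higher in 5 of 6 and 5 of 7 mice. Of 8 Mueller glia markers, 6 had a positive and 2 a negative change in each arm. The median log2 change of these markers was 0.40 with vehicle and 0.27 with RGFP966. With vehicle 2 were called higher and 1 lower, and with RGFP966 1 was called higher and 1 lower. Their sum, in which the most abundant markers weigh most, was higher after crush in 1 of 6 vehicle and 2 of 7 RGFP966 mice. Of 7 other leukocyte markers, 3 reached the mean for testing and 1 of these was called higher in each arm. With vehicle, the log2 changes of the 3 ran from -0.41 to 1.97. The sum of all 7 was higher in 6 of 6 vehicle and 6 of 7 RGFP966 mice. The part that the number of microglia, astrocytes, Mueller glia, other leukocytes or vessel cells has in the integrin and Sparc values was not tested. In bulk tissue more cells of a type and more RNA per cell cannot be told apart.

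**Figure D3:**
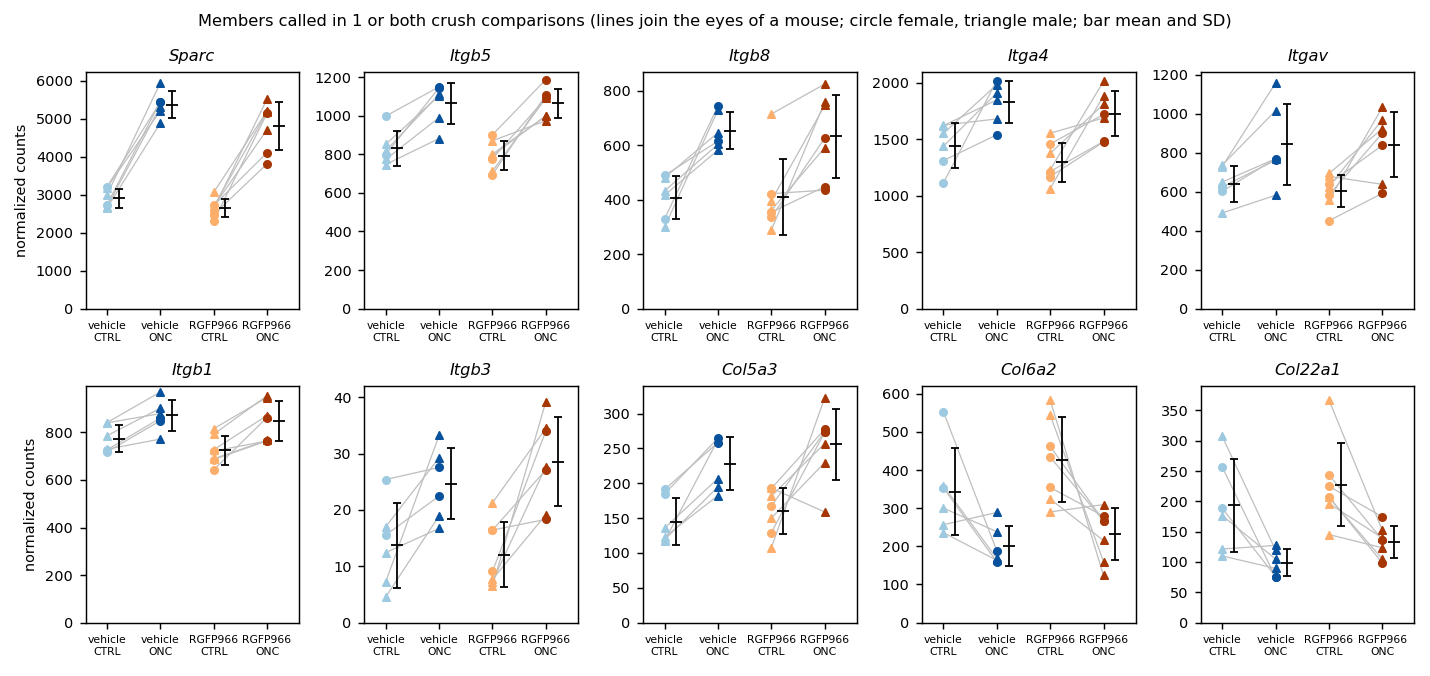
Normalized counts (y axis, from 0) of the 10 members called in 1 or both crush comparisons, in uncrushed (CTRL) and crushed (ONC) eyes of vehicle (blue) and RGFP966 (orange) mice. Each point is 1 eye (circle female, triangle male), grey lines join the eyes of a mouse and black bars give mean and SD; Sparc shows no overlap in either arm, and Col6a2 and Col22a1 are the members that fell.

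Collagen genes moved in both directions, with 1 call higher (2.44%) and 2 lower (4.88%) of 41 in each arm, counts too small to set the family apart from all genes, of which 3.69% rose and 1.65% fell with vehicle and 3.34% and 1.33% with RGFP966. The median log2 change of the family was -0.04 in vehicle mice (0.08 after rescaling to the same total) and -0.12 in RGFP966 mice. Col5a3 (chr9:20770050-20815067, minus strand), a chain of the fibril-regulating collagen V, ranged from 117.0 to 191.1 (median 129.3) in uncrushed and 182.2 to 264.8 (median 232.6) in crushed vehicle eyes. With RGFP966 it held 107.3 to 193.1 (median 167.3) and 158.8 to 322.6 (median 273.2). Groups overlapped in both arms, and the crushed eye was higher in 6 of 6 vehicle and 6 of 7 RGFP966 mice. The log2 changes were 0.66 ± 0.16 (SE; adjusted p = 0.0080) and 0.67 ± 0.14 (adjusted p = 0.0033). The first was lost without vehicle male D (adjusted p = 0.055) and the second held under all 21 alternatives.

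Col6a2 and Col22a1 fell. Col6a2 (chr10:76595762-76623630, minus strand), a chain of the beaded-filament collagen VI, ranged from 236.0 to 553.4 (median 327.0) in uncrushed and 159.1 to 288.7 (median 178.2) in crushed vehicle eyes, and from 290.4 to 584.1 (median 434.1) and 123.7 to 309.4 (median 267.0) with RGFP966. Groups overlapped in both arms, and the crushed eye was lower in 5 of 6 vehicle and 6 of 7 RGFP966 mice. The log2 changes were -0.75 ± 0.22 (SE; adjusted p = 0.040) and -0.90 ± 0.20 (adjusted p = 0.0053). The vehicle call was kept under 10 of 21 alternatives. It was lost without vehicle female A, female C, male B or male C, or RGFP966 female A, female C or male D, at adjusted p between 0.054 and 0.22. It was also lost with no filter on the mean (0.068), after rescaling to the same total (0.097), with only the groups compared (0.055) and without the sex term (0.052). The RGFP966 call held under all 21. Its partner chain Col6a1, named after its values were seen, was not called, with log2 changes of -0.12 (adjusted p = 0.84) and -0.30 (adjusted p = 0.45).

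Col22a1 (chr15:71795795-72034227, minus strand), a collagen of tissue junctions, ranged from 109.9 to 307.2 (median 182.6) in uncrushed and 74.4 to 127.3 (median 97.0) in crushed vehicle eyes, and from 145.2 to 367.2 (median 207.4) and 98.2 to 174.4 (median 136.5) with RGFP966. Groups overlapped in both arms, and the crushed eye was lower in 5 of 6 and 7 of 7 mice. The log2 changes were -0.90 ± 0.23 (SE; adjusted p = 0.014) and -0.75 ± 0.21 (adjusted p = 0.034). The vehicle call was kept under 18 of 21 alternatives and lost without vehicle female A (adjusted p = 0.11) or female C (0.075) and with only the groups compared (0.060). The RGFP966 call was kept under 14 and lost with no filter on the mean (0.056), after rescaling to the same total (0.077) and without RGFP966 female B (0.098), female C (0.098), male A (0.057), male C (0.094) or male D (0.11). The retinal ganglion cell markers fell in the same eyes. Their sum went from 6639 to 11400 to 2291 to 3387 with vehicle and from 7550 to 10350 to 2231 to 3484 with RGFP966. Rod markers fell as well, with 3 of 6 called lower with vehicle and 2 of 6 with RGFP966. The part of either cell type in the fall of these collagens was not tested.

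The interstitial collagens were variable and not called. Col1a1, a chain of the main fibrillar collagen, held 41.9 to 97.4 (median 66.3) in uncrushed and 50.8 to 265.9 (median 94.9) in crushed vehicle eyes, a log2 change of 0.55 ± 0.39 (SE). In RGFP966 mice its change was -0.11 ± 0.36, and 0.28 without RGFP966 male C, whose uncrushed eye was at 408.9. Its partner Col1a2 had 0.30 and 0.28. Col3a1, the collagen of soft connective tissue, was higher in 11 of 13 mice, with 0.88 ± 0.53 and 0.94 ± 0.49 (adjusted p = 0.45 and 0.39). Its uncrushed vehicle eyes spread from 6.26 to 84.2. Of 11 fibroblast markers, which the sclera and choroid would bring, 8 were tested and none was called in either arm. A positive change was seen for 4 of the 8 with vehicle (median -0.02) and 7 with RGFP966 (median 0.36). The sum of the 11 lay between 168.9 and 796.8 over all libraries. It was higher after crush in 4 of 6 vehicle and 5 of 7 RGFP966 mice. The part of such tissue in these collagens was not tested.

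Col2a1, the collagen of cartilage and vitreous, held 1866 to 4452 (median 3480) in uncrushed and 2486 to 3689 (median 3178) in crushed vehicle eyes. Its log2 changes were -0.11 ± 0.18 and -0.40 ± 0.16 (SE; adjusted p = 0.85 and 0.22). Col25a1, a transmembrane collagen of neurons, was higher in 11 of 13 mice, at 0.29 ± 0.12 and 0.08 ± 0.11 (adjusted p = 0.19 and 0.82). Col17a1, a hemidesmosome collagen, had 0.28 ± 0.30 and -0.60 ± 0.28 (adjusted p = 0.74 and 0.29). None of the 3 passed the test.

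No basement membrane gene was called, which for so few genes lies near the share of all genes called. Of 22 such members (collagen IV and laminin chains, nidogens, Hspg2, Col15a1 and Col18a1), 3 in vehicle and 5 in RGFP966 mice had an unadjusted p under 0.05, and the median log2 change was 0.03 and -0.04; its sign changed with rescaling or quantile normalization. Col4a1 and Col4a2 form the ubiquitous collagen IV network and are transcribed from a common region in opposite directions, with annotated starts that overlap. The stretch of 78 bases that both RefSeq promoter windows share follows, with the GC box in capitals.
Col4a1 and Col4a2 (chr8:11312777-11312854, GRCm38.p6, plus strand): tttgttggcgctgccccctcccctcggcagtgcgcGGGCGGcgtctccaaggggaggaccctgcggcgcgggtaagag
Col4a1 ranged from 646.9 to 1816 (median 993.3) in uncrushed and 977.2 to 1480 (median 1082) in crushed vehicle eyes, and Col4a2 from 601.4 to 1717 (median 874.0) and 787.9 to 1391 (median 845.4). Their highest values fell in the same library in each of the 4 groups. In the uncrushed groups these were vehicle female A and RGFP966 male A, which also held the highest lens marker sums (3336 and 26900). In the crushed groups they were vehicle male D and RGFP966 male B. There the lens sums were highest in vehicle female C and RGFP966 female A. The part of lens tissue in the Col4a1 and Col4a2 values was not tested. The log2 changes with crush were 0.18 ± 0.18 and -0.05 ± 0.17 (SE) for Col4a1 and 0.02 ± 0.18 and -0.02 ± 0.17 for Col4a2.

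Col4a3 and Col4a4, which build the mature network of specialised basement membranes, start 72 bases apart in opposite directions on chr1. They were named here, with Col4a5 and Col4a6, after their values were seen. Col4a3 was lower in the crushed eye of 11 and Col4a4 of 12 of 13 mice. Col4a3 ranged from 625.7 to 1078 (median 867.6) in uncrushed and 578.9 to 796.6 (median 661.3) in crushed vehicle eyes, and from 565.1 to 1239 (median 887.4) and 537.9 to 875.4 (median 645.4) with RGFP966. Its log2 changes were -0.37 ± 0.16 and -0.39 ± 0.15 (SE; adjusted p = 0.24 and 0.16), and those of Col4a4 were -0.21 ± 0.14 and -0.27 ± 0.13 (adjusted p = 0.50 and 0.32). Neither passed the test, and Col4a3 did in RGFP966 mice when male C was left out, at -0.56 (adjusted p = 0.015).

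**Figure D4:**
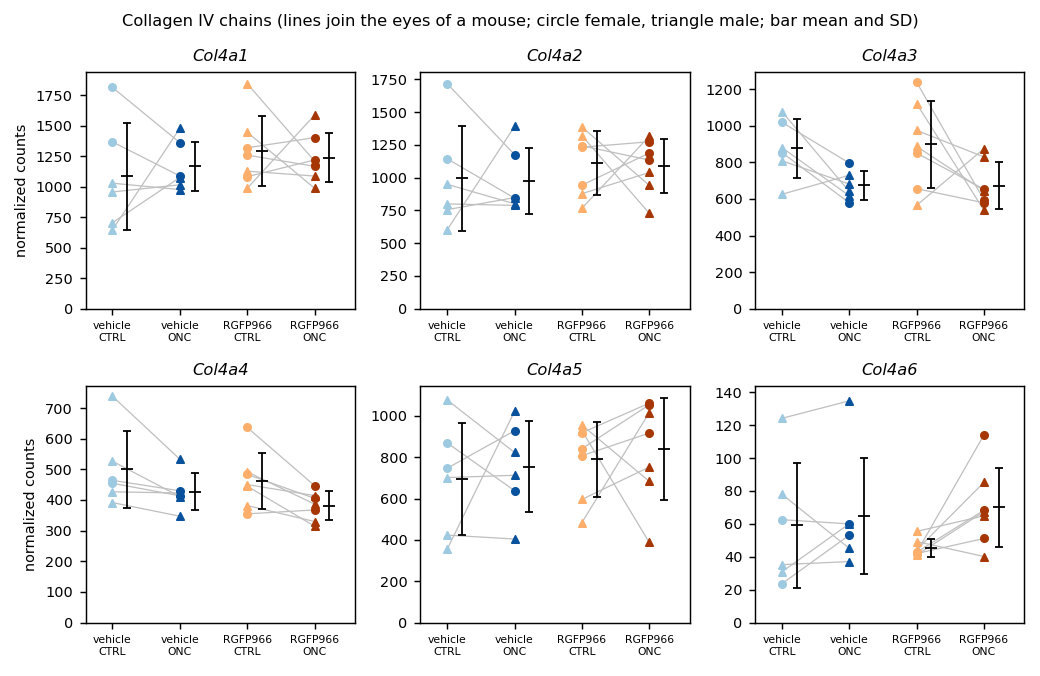
Normalized counts (y axis, from 0, on a scale of its own in each panel) of the 6 collagen IV chains in uncrushed (CTRL) and crushed (ONC) eyes of vehicle (blue) and RGFP966 (orange) mice, 1 point per eye (circle female, triangle male), grey lines joining the eyes of a mouse, black bars mean and SD. Most Col4a3 and Col4a4 lines slope down, in 11 and 12 of 13 mice, and those of the other chains go both ways.

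Laminins, the cross-shaped trimers that initiate basement membranes, showed no call among their 11 chains. The smallest p in RGFP966 mice was that of Lamb2, a beta chain of retinal and synaptic laminins, with 295.5 to 666.3 (median 488.4) in uncrushed and 427.7 to 764.7 (median 705.8) in crushed eyes. Its log2 changes were 0.29 ± 0.17 and 0.42 ± 0.16 (SE; adjusted p = 0.44 and 0.16). Lamb1, the beta chain of early basement membranes, was lower in 12 of 13 mice, at -0.37 ± 0.20 and -0.44 ± 0.19 (adjusted p = 0.40 and 0.25). Its vehicle change was -0.57 without vehicle male D and -0.09 without male A. The retinal gamma chain Lamc3 had -0.37 and -0.41 (adjusted p = 0.38 and 0.29).

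The widely used chain Lamc1 was not called (log2 change -0.17 ± 0.14 SE with vehicle), with 416.1 to 704.9 in uncrushed and 401.6 to 538.0 in crushed vehicle eyes. Lama1, the alpha chain of the inner limiting membrane, had -0.09 ± 0.40 and 0.41 ± 0.37 (SE), and the vascular Lama4 had 0.52 ± 0.36 and -0.26 ± 0.33. The Lama4 value with RGFP966 was 0.15 without RGFP966 female B, whose uncrushed eye held 235.4 against a group median of 67.7. The laminin-2 chain Lama2 had -0.19 ± 0.25 and 0.43 ± 0.23. Nid1 and Nid2, which tie laminin to collagen IV, had 0.18 ± 0.37 and 0.19 ± 0.34, and 0.04 ± 0.56 and 0.64 ± 0.52.

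Among the remaining glycoproteins, Hspg2, the basement membrane proteoglycan perlecan, held 213.2 to 991.9 (median 285.3) in uncrushed and 144.4 to 347.4 (median 253.6) in crushed vehicle eyes. Its log2 changes were -0.61 ± 0.28 and -0.33 ± 0.26 (SE; adjusted p = 0.28 and 0.63). Its highest value, 991.9, was in the uncrushed eye of vehicle female A, which held the highest lens marker sum of that group. The part of lens tissue in it was not tested. Fn1, fibronectin, had 0.22 ± 0.19 and -0.06 ± 0.18, with 976.1 to 1354 in uncrushed and 773.6 to 2492 in crushed vehicle eyes. Tnc, tenascin-C, had 0.44 ± 0.26 and 0.10 ± 0.25, with 61.4 to 171.5 and 94.3 to 226.5. Col18a1, the source of endostatin, had -0.15 ± 0.25 and -0.21 ± 0.23. Hspg2, Fn1, Tnc and Col18a1 overlapped between uncrushed and crushed eyes in both arms.

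RGFP966 against vehicle gave no call, neither for a member nor for any gene (0%), in crushed eyes, in uncrushed eyes or in the drug-by-crush interaction. At an unadjusted p under 0.05 in limma there were 2 members and 403 genes in crushed eyes, 3 and 782 in uncrushed eyes, and 1 and 327 in the interaction. The 2 in crushed eyes were Col1a2 and Sparc, both lower with RGFP966. Col1a2 held 86.7 to 244.3 (median 112.3) in vehicle and 46.3 to 169.0 (median 74.4) in RGFP966 crushed eyes, and 69.7 to 174.6 (median 95.2) and 34.6 to 84.2 (median 71.8) in uncrushed ones. Groups overlapped in both comparisons. The log2 difference was -0.76 (95% interval -1.33 to -0.18; adjusted p = 1.0) in crushed and -0.73 (-1.31 to -0.16; adjusted p = 0.91) in uncrushed eyes.

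For the members called with crush, the intervals of the drug difference bound its size. In crushed eyes the difference was -0.16 (95% interval -0.32 to -0.0021) for Sparc, -0.01 (-0.16 to 0.14) for Itgb5, -0.06 (-0.40 to 0.28) for Itgb8, -0.07 (-0.25 to 0.11) for Itga4 and 0.13 (-0.18 to 0.44) for Col5a3, each with adjusted p = 1.0. Col6a2 and Col22a1 stood at 0.16 (-0.28 to 0.59) and 0.43 (-0.02 to 0.88). Of these 7 intervals, that of Sparc alone left out 0. The interaction for Sparc was -0.04 (-0.26 to 0.19). In uncrushed eyes, unadjusted p was under 0.05 for Col1a2, for Col2a1 at 0.37 (0.01 to 0.72) and for Col25a1 at 0.24 (0.0032 to 0.48), each with adjusted p = 0.91. In the interaction it was so for Col17a1 alone, at -0.88 (-1.71 to -0.04; adjusted p = 1.0).

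Genes that process, bind or are released with the members were counted beside them. Over all genes, 3.69% rose with vehicle and 3.34% with RGFP966. Of 24 collagen maturation enzymes and chaperones tested, 3 rose in vehicle mice (12.5%) and 2 in RGFP966 mice (8.33%). No list was tested as a whole. Pcolce, which speeds removal of the procollagen end piece, rose by 0.81 in both arms (adjusted p = 0.029 and 0.018) and Bmp1, the protease that removes it, by 0.54 and 0.38 (adjusted p = 0.0015 and 0.021). Loxl1, a cross-linking oxidase, rose by 0.74 with vehicle (adjusted p = 0.037) and was not called with RGFP966. None of these genes was called in the drug-by-crush interaction. Of 11 matrix receptors that are not integrins, 3 rose in each arm (27.3%). These were Cd44, the hyaluronan receptor, by 1.15 and 0.86, Cd47, a thrombospondin receptor that associates with integrins, by 0.61 and 0.43, and Ddr1, a collagen receptor kinase, by 0.71 and 0.51. Of 12 TGF-beta pathway genes, 2 rose in each arm (16.7%). These were the ligand Tgfb1 by 1.16 and 0.84 and the receptor Tgfbr2 by 0.81 and 0.60. None of the 3 lists had a call lower.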

How the data were processed

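The authors deposited 1 table of signal, DESeq2-normalized counts per gene; per the submitters' processing notes, reads were assigned to mm10 with kallisto 0.46.1. Libraries were poly(A)-selected, per the labels' protocols. A column name that occurs 2 times left 2 columns unused, with 26 libraries from 13 mice. Symbols turned into dates (26, 0.115% of the total) were left out. Low values were whole multiples of 1 read, within 0.05, in only 37.7 to 64.4% of cases, so no count test was run. Values were tested as log2(value + 1) with limma 3.58.1 (R 4.3.3; trended prior, two-sided) over all genes with a mean of at least 10, in 1 fit of 4 groups and sex, with Benjamini-Hochberg adjustment over all genes. Fold changes on this scale understate those of low genes. The procedure was tested on simulated data with independent noise for each gene and library. That test cannot show how links between the eyes of a mouse or tissue carryover affect the calls. Both eyes came from the same mouse, per the labels. Their deviations from the means of each group and sex correlated at over 0.1 in 2 of 13 mice (-0.345 to 0.23). The 2 vehicle females mirror each other around their mean and so share 1 value, 0.0375. A mouse block was run as an alternative, with other pseudocounts (0.5 and 5), filters, scalings, designs and each mouse left out. Positions are from GENCODE vM21 and promoters from RefSeq. Named genes are the members called, the 2 with the smallest p per family and comparison, and a fixed set of common matrix genes, plus up to 3 called genes per pathway list. Members and lists were chosen with earlier results of these data known. Labels do not give how mice were allocated or sequenced in batches, which was not analysed here. Drawings were made with matplotlib 3.10.9.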

Additional observations from a re-analysis of the deposited data

Results flagged for a closer look

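In 148 groups of named members (37 members in 4 groups), 5 had a library far from the rest of its group on the log2 scale, where chance alone gives about 1 in 20. Col18a1 reached 1233 in the crushed eye of RGFP966 female C, against 365.4 to 587.4 in the other crushed RGFP966 eyes; the pigment epithelium and fibroblast marker sums of that group were also highest in this library, at 3921 and 796.8, and their part was not tested. Itgal, a leukocyte integrin chain at low levels, stood at 50.66 in the uncrushed eye of vehicle male B (the others 4.719 to 11.05) and at 69.24 in that of RGFP966 female B (the others 5.275 to 11). Itgb8 stood at 715 in the uncrushed eye of RGFP966 male A (the others 288 to 422.5), the library with the highest lens marker sum. Tnc stood at 286.5 in the crushed eye of RGFP966 male C (the others 93.62 to 150.4). Without vehicle male B the vehicle change of Itgal with crush was 1.22 (adjusted p = 0.19), against 0.56 with it.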

How the results depend on the processing

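Calls for Sparc and Itgb5 held under all 21 alternatives in both arms, and no named value that was called changed sign. In vehicle mice 5 members rose and 2 fell; the count that fell was 1 without the filter on the mean, 1 after rescaling to the same total, 1 without the sex term and 0 with only the groups compared, and 0 to 2 with 1 mouse left out, while the count that rose was 3 to 5 with 1 mouse left out and 7 after rescaling, with Itgav and Itgb1 gained. In RGFP966 mice 8 rose and 2 fell; the count that fell was 1 without the filter and 1 after rescaling, the count that rose was 7 without the filter, 7 with only the groups compared and 6 without the sex term, and with 1 mouse left out 4 to 8 rose and 1 to 2 fell. Over all genes, rescaling gave 978 higher and 97 lower calls in vehicle mice (582 and 260 as reported) and 129 lower in RGFP966 mice (210), and moved the median of all genes to 0.10 and 0.06; with only the groups compared 126 fell in vehicle mice, and with 1 mouse left out 117 to 282 did. The replicate block by mouse (consensus correlation -0.0286) kept 5 and 2 member calls in vehicle and 8 and 2 in RGFP966 mice and changed no other call. In all these alternatives the 3 drug comparisons gave 0 member calls. Depth limits low members such as Itgb3, where few reads stand behind a value. The causes of these changes were not tested.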

Other observations

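Over all genes, 3.69% rose and 1.65% fell with vehicle, and 3.34% rose and 1.33% fell with RGFP966. Of 25 proteoglycan and link protein genes tested, 2 rose (8%) and 1 fell (4%) in vehicle mice. In RGFP966 mice 2 rose and 2 fell (8% each). Bcan, brevican of the perineuronal matrix, fell by 1.23 and by 1.56 on the log2 scale (adjusted p = 0.0028 and 5.8e-05). Hapln1, its link protein, fell by 1.21 with RGFP966 (adjusted p = 0.030) and was not called with vehicle. No gene of this list was called in the drug-by-crush interaction, whose log2 values ran from -0.49 to 0.85. Gpc3, a glypican, rose by 0.77 and 0.64 and Prelp, a collagen-binding small proteoglycan, by 0.61 and 0.64. Of 17 matricellular genes, 3 rose in each arm (17.6%). These were Spp1, osteopontin, by 1.44 and 1.42, Ccn1 by 1.19 and 0.80 and Tnxb by 0.54 and 0.60. Of 16 elastic fibre and fibulin genes, Efemp1 alone was called (6.25% of the list), in RGFP966 mice (0.73, adjusted p = 0.0064).

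Of 24 proteins that link integrins to the cytoskeleton, 2 rose in each arm (8.33%), against 3.69% and 3.34% of all genes. They were Zyx (0.72) and Fermt3 (0.66) in vehicle mice and Kank2 (0.61) and Ptk2b (1.12) in RGFP966 mice. The interaction test gave no call for any gene. Of 8 Mueller glia markers, 2 rose and 1 fell in vehicle mice and 1 rose and 1 fell in RGFP966 mice, among them Glul, which fell by 0.44 and by 0.36.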
